A study of Mus musculus with 6 samples.

Results

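CHCHD10 is a small protein of the mitochondrial intermembrane space, and its gene and those of 7 partners in the shaping of the inner membrane were followed here in the mouse optic nerve after crush injury. The inner membrane of a mitochondrion folds into cristae, and the necks of these folds are held by the MICOS complex, by CHCH-domain proteins and by the dynamin-like GTPase OPA1. The inner-membrane proteases OMA1 and YME1L1 cut OPA1 and so set the balance between its long and short forms. Variants of CHCHD10 are known from amyotrophic lateral sclerosis with frontotemporal dementia and from mitochondrial myopathy, variants of its paralog CHCHD2 from Parkinson disease, and variants of OPA1 from dominant optic atrophy, in which retinal ganglion cell axons of the optic nerve are lost.

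The 8 genes were Chchd10, Chchd2, Chchd3, Chchd6, Immt, Opa1, Oma1 and Yme1l1, and each had a row among the 25755 genes of the deposited table. They were chosen by name with the sham and ON-CR values of these same libraries already known, Chchd10 being a gene with lower values after injury. For that reason the sham and ON-CR values of the 8 genes are given as a description, with a log2 difference and its standard error (SE) but no test. All mice were Nf1flox/flox; hGFAP-Cre, in which Cre recombinase under the human GFAP promoter removes Nf1, the neurofibromatosis type 1 gene, from neuroglial progenitors and the cells derived from them. Sham surgery had been performed in mice 1 to 3 and optic nerve crush (ON-CR) in mice 4 to 6, and the labels give an age of 3 months for all 6. Neither group had intact Nf1 in these cells, so sham and ON-CR were compared on that background only, and the labels name 1 mouse for each library. The study reports that crush in mice of this genotype leads to optic glioma by the age of analysis. Injury and tumor therefore cannot be told apart here. The study describes pooling a pair of mice per sample where it gives RNA extraction for qPCR, and whether libraries for sequencing were pooled in that way is not given in the sources used here.

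RNA of whole optic nerves of perfused animals was sequenced from 10 ng of total RNA, and values are the estimated counts of each gene after median normalization by the authors. Depth was 17414091 to 23621006 estimated reads per library, and the shallowest sham library, with 19892892, was deeper than the deepest ON-CR library, with 18978379. The lowest level of any of the 8 genes in any library corresponded to 194 estimated reads. As in a white matter tract, the 14 mature oligodendrocyte markers summed to between 747393 and 2046624 and the 10 astrocyte markers to between 219978 and 316536 in each library. The libraries also differed in ways that the labels do not give. Xist was at 16.7, 2.14 and 30.9 in the sham libraries and at 2708, 6357 and 6131 in ON-CR 4, 5 and 6, and the Y-linked Ddx3y at 1645, 1291 and 1544 against 976, 4.19 and 0. Sex and surgery therefore cannot be told apart. ON-CR 4 held both transcripts, so whether that library came from a single mouse is unsettled. Markers of respiratory epithelium summed to 10114 in sham 3, 7522 in ON-CR 5 and 7157 in ON-CR 6 but to no more than 1278 in the other libraries. Neuron markers summed to 7829 in ON-CR 5 and to between 1584 and 3557 elsewhere.

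The 8 genes fall into a CHCH-domain group and a group of membrane proteins and proteases, and the sequence that sets the first group apart is shown because its spacing places Chchd10 with Chchd2. In this domain a pair of helices is pinned together by disulfide bonds between cysteines that lie 9 residues apart in each helix (the twin CX9C motif), and CHCHD4 (Mia40) oxidizes them on import. A search of the coding sequences of 21538 genes for TGT or TGC codons in this spacing, with 5 to 30 codons between both pairs, found it in 651 genes, or 3.02%, and in 4 of the 8 genes here. The stretches below are coding-strand sequences of GENCODE M21 transcripts (GRCm38, the assembly also called mm10), each within 1 coding exon, and capitals mark the 4 cysteine codons.
Chchd10: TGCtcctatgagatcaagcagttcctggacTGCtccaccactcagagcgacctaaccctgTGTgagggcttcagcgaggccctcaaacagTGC
Chchd2: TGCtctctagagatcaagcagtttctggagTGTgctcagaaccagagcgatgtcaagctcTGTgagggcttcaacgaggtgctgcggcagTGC
Chchd3: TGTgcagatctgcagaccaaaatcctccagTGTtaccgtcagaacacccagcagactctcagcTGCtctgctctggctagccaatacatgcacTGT
Chchd6: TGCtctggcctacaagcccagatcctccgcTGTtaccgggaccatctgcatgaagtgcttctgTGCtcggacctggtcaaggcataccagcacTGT

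These stretches lie at chr10:75937349-75937441 on the plus strand for Chchd10 (codons 98 to 128 of 138), at chr5:129882442-129882534 on the minus strand for Chchd2 (codons 116 to 146 of 153), at chr6:32803908-32804003 on the minus strand for Chchd3 (codons 183 to 214 of 227) and at chr6:89384622-89384717 on the minus strand for Chchd6 (codons 235 to 266 of 273). Chchd10 and Chchd2 carry 9 codons between the pairs and share 66 of 93 bases (71.0%). Chchd3 and Chchd6 carry 10 codons there and share 55 of 96 bases (57.3%). By the number of codons between the cysteine pairs, the 4 stretches therefore form 2 pairs. Shared bases were counted only between stretches of the same length, so they are not compared across these pairs. In all 4 the motif lies near the C-terminal end of the protein. Immt, Opa1, Oma1 and Yme1l1 do not hold the motif as searched.

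Chchd10 (ENSMUSG00000049422.7, chr10:75933130-75937747, plus strand) was at 1948, 3073 and 2368 in sham 1, 2 and 3 and at 497, 261 and 201 in ON-CR 4, 5 and 6. Every ON-CR value was below every sham value, and the highest ON-CR library, ON-CR 4, was the one that also held the Y-linked transcript. The means were 2463 ± 569 in sham and 320 ± 156 in ON-CR (SD, n = 3 each), so the ON-CR mean was 7.70-fold lower and stood at 13.0% of the sham mean. The log2 difference, ON-CR minus sham on log2(value + 1), was -3.02 (SE 0.29). Ranked from the largest decrease among the 14436 genes with a mean value of at least 50, Chchd10 was at position 8. The positions of the partners ran from 2979 (Chchd2) to 9378 (Chchd6). Since Chchd10 was chosen with its lower ON-CR values known, these positions are a description only. The Chchd10 values rested on 1836, 3471 and 2522 estimated reads in the sham libraries and on 498, 249 and 194 in the ON-CR libraries. With a single library left out the log2 difference ran from -3.39 without ON-CR 4 to -2.74 without ON-CR 6, and it was -2.30 with sham 3, ON-CR 5 and ON-CR 6, the libraries with respiratory epithelium transcripts, all left out. Since whole nerves were sequenced, fewer cells of a type that expresses a gene and less RNA per cell cannot be told apart, for Chchd10 or any other gene here.

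Other genes lie at the same place. Chchd10 has 2 coding transcripts of 939 and 1488 bases, of which 155 exonic bases lie opposite exons of Mmp11 (stromelysin-3, a secreted metalloprotease, minus strand) and 25 opposite Gm867. Mmp11 was at 139, 105 and 130 in sham and at 131, 45.1 and 109 in ON-CR, with a log2 difference of -0.51 (SE 0.36, limma adjusted p = 0.544). Gm867 averaged 16.1 in sham and 13.2 in ON-CR (log2 difference -0.40, limma adjusted p = 0.817), and Vpreb3, the next gene on the plus strand, averaged 9.94 and 27.4 (log2 difference 0.87, limma adjusted p = 0.689). None of these 3 neighbours passed the test. In sham the Mmp11 value was small beside that of Chchd10, but in ON-CR it was less so, with 109 beside 201 in ON-CR 6. These are values of whole genes, and the merged exons of the coding Mmp11 transcripts hold 2494 bases, beside the 155 that are shared. Whether the counting used strand is not given in the sources used here, so reads of the overlapping bases cannot be assigned to one gene.

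Chchd2 (ENSMUSG00000070493.3, chr5:129881156-129887470, minus strand), the paralog with which CHCHD10 forms a complex, was at 7066, 7436 and 6256 in sham and at 5654, 6283 and 5276 in ON-CR. The sham minimum lay just under the ON-CR maximum, so the groups met at that edge. The ON-CR mean of 5738 ± 508 was 82.9% of the sham mean of 6919 ± 604 (SD, n = 3 each), with a log2 difference of -0.27 (SE 0.12). There were 5 copies with at least 90% identity over 100 bases or more (Chchd2-ps, Gm12350, Gm4995, Gm6222 and Zbed5), which summed to 768 in sham and 696 in ON-CR, and reads that fit both Chchd2 and a copy could have been split among them. The lower Chchd10 level therefore went with a shift in the ratio of both paralogs. The Chchd10 value was 27.6%, 41.3% and 37.9% of the Chchd2 value in sham 1, 2 and 3 and 8.79%, 4.15% and 3.81% in ON-CR 4, 5 and 6. The mean ratio was 35.6% ± 7.15 in sham and 5.59% ± 2.78 in ON-CR (SD, n = 3 each).

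The MICOS members were near their sham levels after injury. Immt (Mic60, the core scaffold of MICOS, ENSMUSG00000052337.15, chr6:71831331-71877388, plus strand) was at 2543, 2103 and 2249 in sham and at 2219, 2211 and 2107 in ON-CR, with a log2 difference of -0.07 (SE 0.11). Chchd3 (Mic19, which links Mic60 to the outer membrane SAM complex, ENSMUSG00000053768.13, chr6:32790976-33060260, minus strand) was at 1371, 1465 and 1219 in sham and at 1197, 1254 and 1265 in ON-CR, with a log2 difference of -0.12 (SE 0.11). For both, the ON-CR libraries lay inside or just under the sham range and differed less among themselves than the sham libraries did. The ON-CR coefficient of variation was 2.87% for Immt and 2.91% for Chchd3, against 9.76% and 9.19% in sham. Chchd6 (Mic25, the paralog of Mic19, ENSMUSG00000030086.16, chr6:89383146-89595652, minus strand) was at 619, 506 and 455 in sham and at 430, 664 and 620 in ON-CR. It held both the lowest and the highest of its 6 values in ON-CR libraries, and its log2 difference was 0.10 (SE 0.19).

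**Figure D1:**
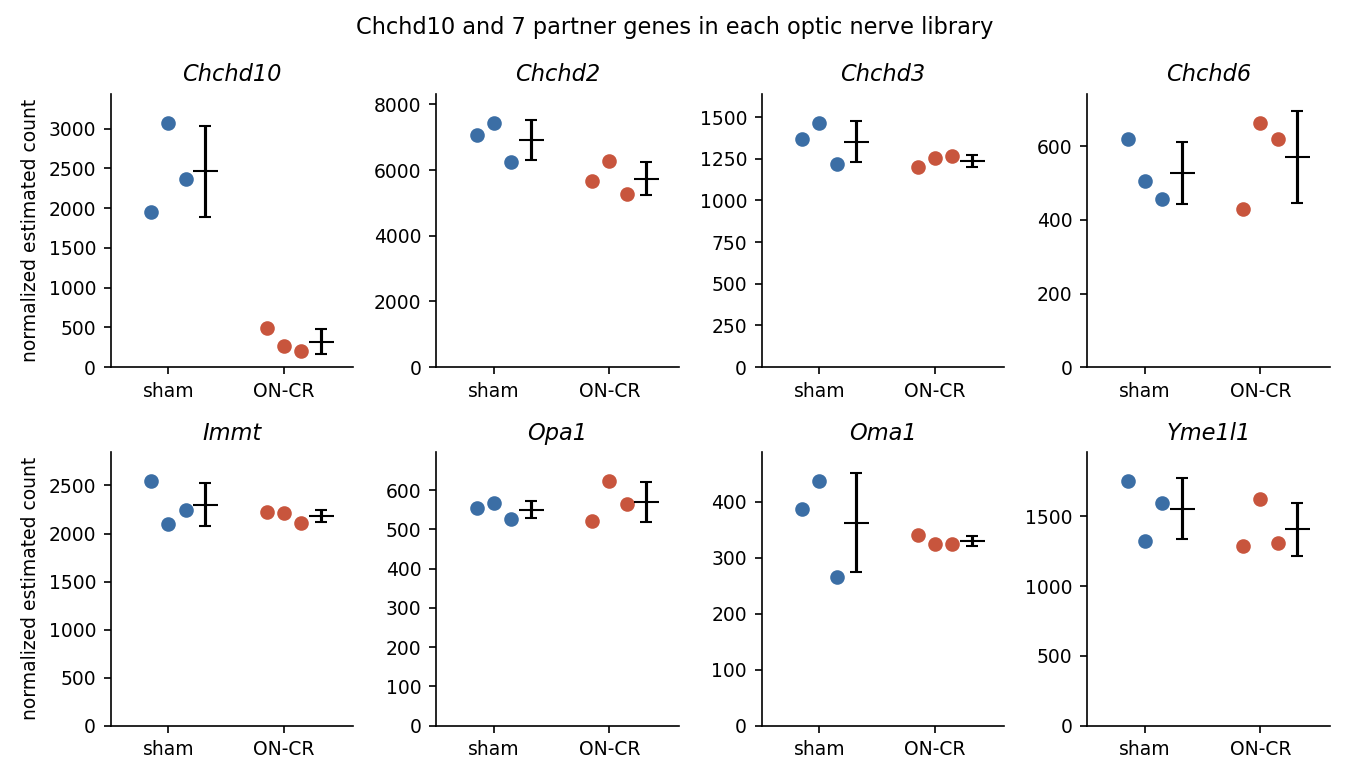
Normalized estimated count (y axis, from 0) of each of the 8 genes in the 3 sham libraries (blue points) and the 3 ON-CR libraries (red points), with the group mean and SD beside the points in black. Chchd10 has ON-CR points between 201 and 497 under sham points between 1948 and 3073, and for each of the other 7 genes the points of both groups share a range.

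Opa1 and its proteases were likewise close between groups. Opa1 (ENSMUSG00000038084.16, chr16:29579334-29654884, plus strand), which drives inner membrane fusion and tightens cristae junctions, was at 555, 568 and 526 in sham and at 521, 623 and 566 in ON-CR. With means of 550 ± 21.7 and 570 ± 50.7 (SD, n = 3 each) its log2 difference was 0.05 (SE 0.13). Gene counts do not separate the splice forms or the cleaved forms of OPA1, so nothing in these values concerns its processing by proteases. Oma1 (ENSMUSG00000035069.3, chr4:103313812-103371868, plus strand), the protease that is activated when membrane potential is lost, was at 387, 436 and 265 in sham and at 341, 324 and 325 in ON-CR. The 3 ON-CR values sat inside a wide sham range, and the log2 difference was -0.11 (SE 0.19). Yme1l1 (ENSMUSG00000026775.9, chr2:23156369-23199260, plus strand), the ATP-dependent i-AAA protease, was at 1751, 1320 and 1595 in sham and at 1288, 1624 and 1307 in ON-CR, with a log2 difference of -0.14 (SE 0.14).

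Among the 7 partners 5 log2 differences were below 0 and 2 above, from -0.27 for Chchd2 to 0.10 for Chchd6, and their median was -0.11 beside 0.03 for all genes. Chchd10 alone of the 8 genes had groups that did not overlap with ON-CR lower, a pattern shown by 11.0% of all genes. Because this contrast was known when the genes were chosen, nothing is read from that count. When a single library was left out or the scaling, filter or pseudocount was changed, the differences of Immt, Opa1, Oma1 and Chchd6 took either sign, with limits of -0.13 and 0.003 for Immt, -0.02 and 0.11 for Opa1, -0.32 and 0.04 for Oma1 and -0.02 and 0.30 for Chchd6. Those of Chchd2 (-0.34 to -0.21), Chchd3 (-0.20 to -0.06) and Yme1l1 (-0.26 to -0.05) stayed below 0 in the same alternatives. With sham 3, ON-CR 5 and ON-CR 6 all left out the differences of Chchd6 (-0.38), Chchd2 (-0.36), Chchd3 (-0.24) and Opa1 (-0.11) lay outside these limits, and all 8 genes were then lower in ON-CR 4 than in the mean of sham 1 and 2.

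Levels of different genes were compared per kilobase of the merged exons of their coding transcripts. In sham nerves the order was Chchd2 (7562 per kilobase), Chchd10 (1655), Immt (798), Chchd3 (557), Chchd6 (468), Yme1l1 (330), Oma1 (190) and Opa1 (86.0), and in that order the ranges of the 3 libraries overlapped between neighbours for Chchd3 and Chchd6 alone. In ON-CR nerves it was Chchd2 (6271 per kilobase), Immt (756), Chchd3 (510), Chchd6 (507), Yme1l1 (299), Chchd10 (215), Oma1 (172) and Opa1 (89.1). Chchd10 thus stood second among the 8 genes in sham and sixth in ON-CR, where its range overlapped those of Yme1l1 and Oma1, while the other 7 genes kept their order among themselves. On this scale Chchd10 was at 21.9% ± 4.40 of Chchd2 in sham and at 3.43% ± 1.71 in ON-CR (SD, n = 3 each).

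Expressing each gene relative to other genes of the same library removes any factor that scales whole libraries. Relative to the median of 31 genes that mark mitochondrial content (porins, carriers, import subunits, matrix enzymes and respiratory chain subunits), Chchd10 lay at log2 values of -0.69, 0.03 and -0.23 in sham and of -2.50, -3.43 and -3.89 in ON-CR. In sham nerves it was thus within a factor of 2 of a typical mitochondrial gene, and in ON-CR nerves it was below that level in every library. Its mean relative level differed by -2.98 between groups, from -0.30 ± 0.36 to -3.27 ± 0.71 (log2, SD, n = 3 each). For the 7 partners the same difference ran from -0.22 (Chchd2) to 0.15 (Chchd6). Chchd2 had relative levels of 1.17, 1.30 and 1.17 in sham and of 1.00, 1.16 and 0.82 in ON-CR, so on this scale its groups did not overlap, although they lay close together.

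Mature oligodendrocyte markers moved in the same direction as Chchd10. Of these 14 genes 10 fell and 0 rose at a limma adjusted p at or under 0.05, beside 1.13% of all genes that were lower in ON-CR by the same rule. Their median log2 difference was -0.86, and their summed level was 1468039 to 2046624 in sham and 747393 to 928306 in ON-CR. Mbp, the main myelin protein gene of the list, fell by 1.42 on the log2 scale (limma adjusted p = 0.0117). Relative to the median of these 14 genes in the same library, Chchd10 was at log2 values of -3.28, -2.68 and -2.73 in sham and of -4.59, -5.04 and -5.70 in ON-CR. The difference between the mean relative levels was -2.21. It is taken from the list median, and the log2 differences of single list genes ran from -1.42 (Mbp) to -0.44 (Opalin). Whether a change in oligodendrocytes accounts for the Chchd10 difference was not tested. On the same scale the 7 partners were higher in ON-CR, by 0.54 (Chchd2) to 0.91 (Chchd6).

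**Figure D2:**
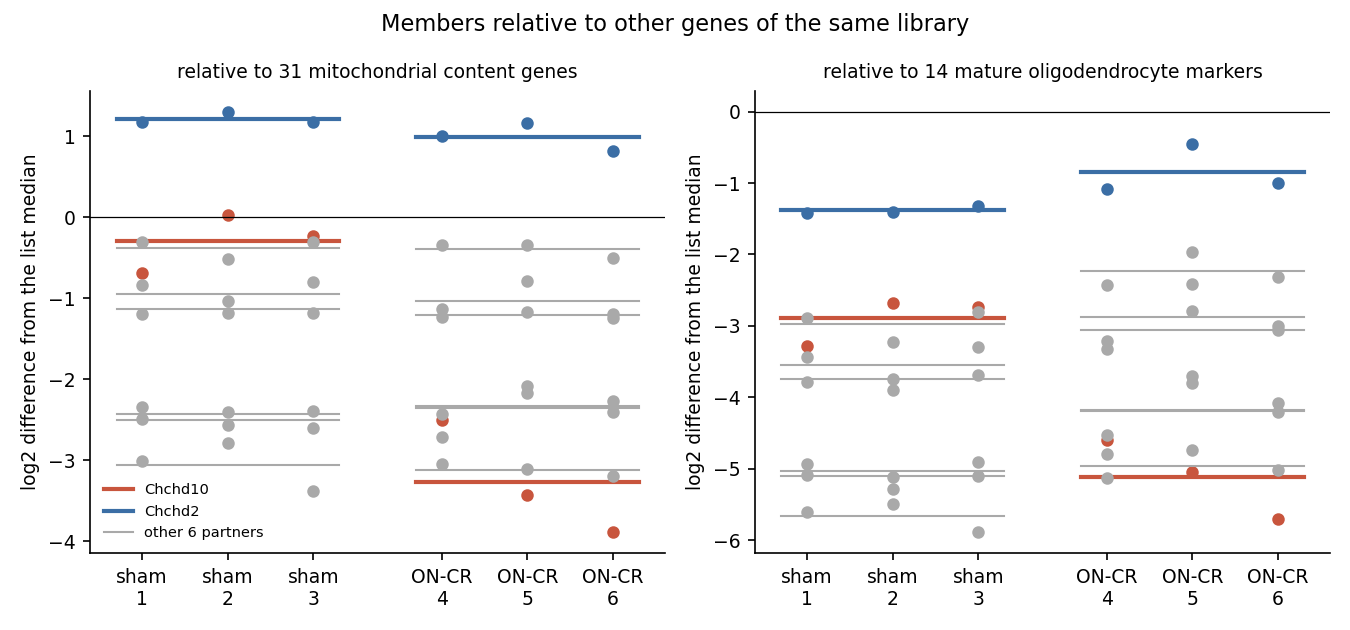
Level of Chchd10 (red), Chchd2 (blue) and the other 6 partners (grey) in each library as the log2 difference from the median of 31 mitochondrial content genes (left) or of 14 mature oligodendrocyte markers (right), with lines at the group means. On the left the Chchd10 mean goes from -0.30 in sham to -3.27 in ON-CR while that of Chchd2 goes from 1.22 to 0.99, and on the right the partners are higher in ON-CR and Chchd10 is lower.

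Markers of other cell types were compared in the same way. Of the 8 microglia and macrophage markers 3 rose and 0 fell, beside 0.971% of all genes higher in ON-CR by this rule, with sums of 18815 to 24540 in sham and 25350 to 40044 in ON-CR. Their median log2 difference was 0.70, with 6 above 0 and 2 below (P2ry12 at -0.35 and Tmem119 at -0.27). The 10 astrocyte markers gave no call (5 with an unadjusted p under 0.05), at sums of 219978 to 269147 in sham and 288803 to 316536 in ON-CR. Gfap made up much of these sums, at 99186 to 123408 in sham and 156465 to 202957 in ON-CR, whereas the median log2 difference of the 10 was 0.03, with 6 above 0 and 4 below (lowest -0.62, Aldoc). Of the 6 oligodendrocyte precursor markers 1 rose and 0 fell (4 with an unadjusted p under 0.05). Their median log2 difference was -0.23, with 4 below 0 and 2 above. No gene of the neuron (10), fibroblast and meningeal (6) or endothelial (6) lists passed the limma test (1, 4 and 1 had an unadjusted p under 0.05). All 6 fibroblast and meningeal differences were below 0, with a median of -0.42. Their sums were 17613 to 21038 in sham and 11294 to 17375 in ON-CR. The neuron list had 9 differences above 0 and 1 below, and the endothelial list 2 above and 4 below. Sums of the neuron list were 1584 to 3557 in sham and 1736, 7829 and 2227 in ON-CR 4, 5 and 6, so ON-CR 5 alone lay above the sham range. Skeletal muscle, a tissue in which CHCHD10 is abundant, was represented by 11 of 13 listed genes that summed to 130 to 375 in sham and 186 to 238 in ON-CR. None of the 11 passed the limma test (1 with an unadjusted p under 0.05), and 7 of their log2 differences were below 0 and 4 above, with a median of -0.41. Its fast myosin gene Myh4 was at 0 in 4 of 6 libraries, whereas the fast light chain gene Mylpf was at 30.1 to 39.0 and Acta1 at 18.3 to 76.8 over all 6. The log2 differences ran from -1.77 for Tnnc2 to 1.32 for Tnni2, both troponin genes (limma adjusted p = 0.544 and 0.126). Adipocyte markers (2 of 6 in the table) summed to no more than 13.3 and photoreceptor markers (5 of 8 in the table) to no more than 77.1. The part of any cell type in the Chchd10 difference, mature oligodendrocytes among them, was not tested. Unadjusted counts are given here without the share of all genes, so nothing is read from them.

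To place the 8 genes in their pathway, 122 further genes of cristae, mitochondrial membranes and mitochondrial stress were read in 8 lists. At a limma adjusted p at or under 0.05, 1 of them rose and 2 fell, or 2.46%, beside 2.10% of all 25755 genes in either direction (0.971% higher and 1.13% lower in ON-CR). Their median log2 difference was -0.07, and the lowest of them, at -0.94, was far from the -3.02 of Chchd10. Both counts depended on single libraries. Over all genes 540 were called, but 67 without ON-CR 6, 123 without sham 2, 192 without sham 1, 258 without sham 3 and 854 without ON-CR 5. Of the 122 genes limma called 3 without ON-CR 4 and 8 without ON-CR 5, but 0 without sham 1, sham 2, sham 3 or ON-CR 6, where 23, 21, 34 and 18 had an unadjusted p under 0.05. These unadjusted counts have no share of all genes beside them, and nothing is read from them.

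Of 10 further MICOS and sorting-bridge genes 1 fell and 0 rose, with a median log2 difference of 0.03. The gene that fell was Mtx2 (metaxin 2, an outer membrane partner of the SAM complex to which MICOS is tethered), at 217, 213 and 181 in sham and at 133, 92.2 and 96.6 in ON-CR. Its log2 difference was -0.94 (SE 0.20, limma adjusted p = 0.0492). With 1 library left out its adjusted p was 0.0372 (ON-CR 4), 0.0669 (ON-CR 5), 0.101 (sham 3), 0.17 (sham 1), 0.214 (ON-CR 6) or 0.223 (sham 2), so the call was lost in 5 of these 6 fits. It was also lost with a pseudocount of 2 (adjusted p 0.0502), with a pseudocount of 0.1 (adjusted p 0.0527) and with TMM scaling (adjusted p 0.0527). The MICOS subunits of this list, Micos10, Micos13, Apoo and Apool, had log2 differences of -0.12, 0.06, 0.03 and 0.05, and like Immt, Chchd3 and Chchd6 their groups overlapped.

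Of 14 fusion, fission and scaffold genes 1 fell and 0 rose, and 13 of the 14 log2 differences were below 0, with a median of -0.25. Letm1, an inner membrane ion exchanger whose loss distorts cristae, was at 738, 908 and 767 in sham and at 521, 478 and 403 in ON-CR. It fell by 0.79 on the log2 scale (SE 0.14, limma adjusted p = 0.0251). The adjusted p of Letm1 was 0.0318 without ON-CR 4 and 0.0254 without ON-CR 5 but 0.0688 without sham 1, 0.0784 without sham 3, 0.143 without ON-CR 6 and 0.149 without sham 2. The outer membrane mitofusins Mfn1 and Mfn2, which act in fusion together with Opa1 (log2 difference 0.05), were at -0.35 and -0.25, and neither passed the test (limma adjusted p = 0.289 and 0.275).

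The lists closest to CHCHD10 in structure and import gave no call. None of the 19 genes of twin CX9C proteins and their import passed (median log2 difference -0.01, 2 genes with an unadjusted p under 0.05), and the largest differences were those of Gfer, the sulfhydryl oxidase that recharges CHCHD4, at -0.57 (limma adjusted p = 0.203), and of Cmc4, at -0.30 (limma adjusted p = 0.355). Chchd4 itself, the import receptor for CHCHD10, was at 378, 365 and 353 in sham and at 364, 460 and 415 in ON-CR. None of the 12 further mitochondrial proteases passed (median -0.06, 2 with an unadjusted p under 0.05), with Clpx at -0.43 (limma adjusted p = 0.135) and Afg3l2, an m-AAA subunit, at 0.38 (limma adjusted p = 0.256) the farthest from 0. None of the 9 genes of cardiolipin synthesis and remodelling passed (median -0.13, 2 with an unadjusted p under 0.05), with Pgs1 at -0.67 (limma adjusted p = 0.15) and Pnpla8 at -0.29 (limma adjusted p = 0.282). None of the 7 ATP synthase dimer and rim genes passed (median 0.07, 0 with an unadjusted p under 0.05), with Atpif1 and Atp5j2 both at 0.16. None of the 31 mitochondrial content genes passed (median -0.14, 8 with an unadjusted p under 0.05), with Cyc1 at -0.53 (limma adjusted p = 0.0576) and Tfam at -0.45 (limma adjusted p = 0.172), and 23 of the 31 differences were below 0. Cyc1 passed, as lower, with a value of at least 10 in every library, in the robust fit, with array quality weights and without ON-CR 5.

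The mitochondrial stress response begins, in one of its known branches, with OMA1, which cleaves DELE1 so that it activates the kinase HRI and then the transcription factor ATF4. In this list of 20 genes 1 rose and 0 fell, 15 had an unadjusted p under 0.05 (14 differences above 0 and 6 below in the whole list), and its median log2 difference of 0.45 was the highest of the 8 lists, beside 0.03 for all genes. The share of all genes under that unadjusted threshold is not given here, so nothing is read from this or the other unadjusted counts. Asns (asparagine synthetase, an ATF4 target) was at 449, 377 and 286 in sham and at 564, 891 and 1254 in ON-CR, with a log2 difference of 1.23 (SE 0.27, limma adjusted p = 0.0471). The adjusted p of Asns was 0.0109 without ON-CR 4, 0.0548 without ON-CR 5 and 0.22 without ON-CR 6, and 0.1, 0.192 and 0.16 without sham 1, 2 and 3. With all 6 libraries it was 0.0587 at a pseudocount of 0.1 and 0.0954 in the robust fit. Upstream in this branch Oma1 had a log2 difference of -0.11, Dele1 of -0.31 (limma adjusted p = 0.236) and Eif2ak1, the gene of HRI, of -0.32 (limma adjusted p = 0.205). The largest difference in the list, named after its value was seen, was that of the stress hormone gene Gdf15, at 3.18, 11.5 and 2.82 in sham and at 46.9, 17.8 and 96.6 in ON-CR (log2 difference 2.93, SE 0.68, limma adjusted p = 0.0607). In the other direction Psat1, a serine synthesis enzyme gene, had a log2 difference of -0.53 (SE 0.12, limma adjusted p = 0.0616), and Ddit4 had the lowest of the list, at -0.61 (limma adjusted p = 0.206). Psat1 passed the test with a value of at least 10 in every library, in the robust fit and with array quality weights, and Gdf15 in the latter pair of these. ON-CR 5, the library with the highest neuron markers, had the lowest ON-CR value of Gdf15 and of Atf4 (440 beside 653 and 778), and without it Atf4, Chac1, Ddit3, Gdf15, Mthfd2 and Trib3 passed the test. Asns did not pass without that library. Chchd10 did not follow this split, since its ON-CR 5 value of 261 lay between those of ON-CR 4 and ON-CR 6.

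**Figure D3:**
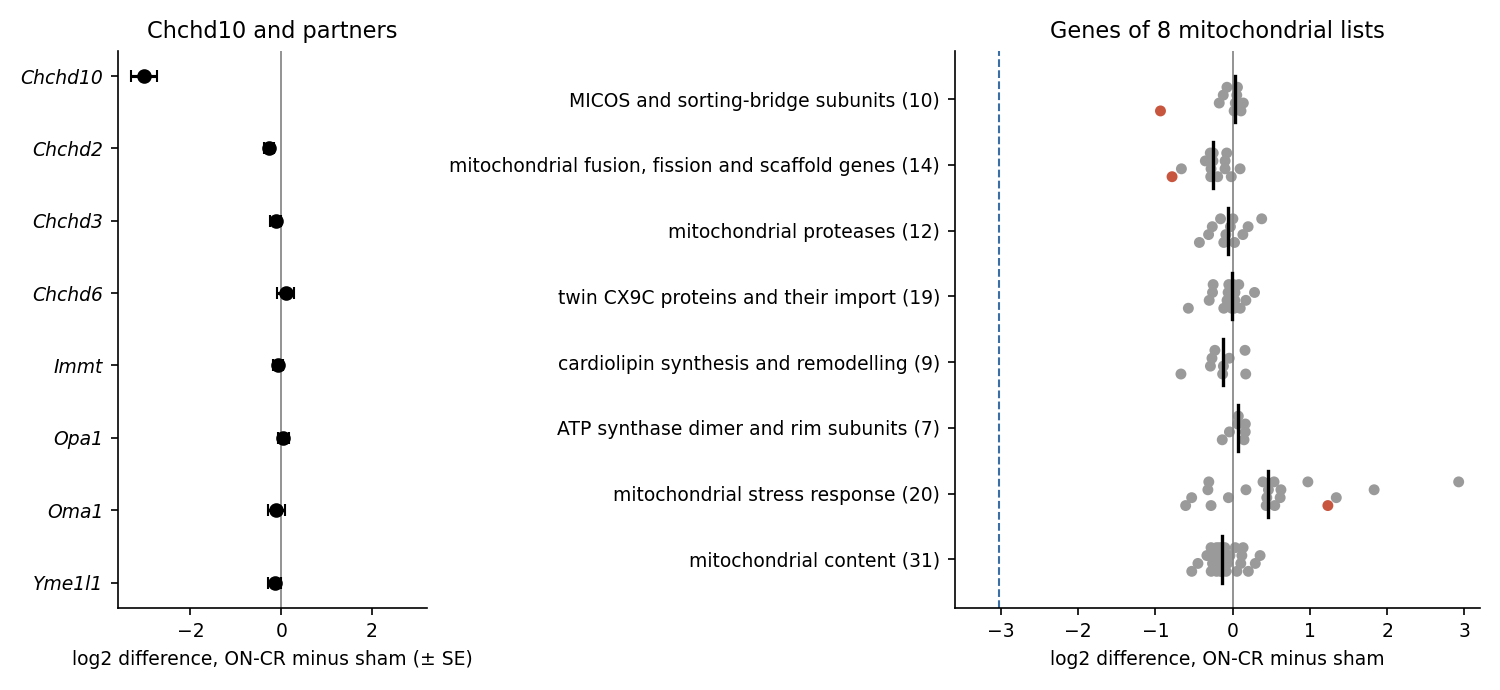
Log2 difference, ON-CR minus sham, of the 8 genes with SE (left, black points) and of each gene in 8 mitochondrial lists (right, number of genes in brackets), where red points passed the limma test, black bars are list medians and the dashed line is Chchd10. The partners lie between -0.27 and 0.10, Chchd10 is at -3.02, and no gene of the lists is lower than -0.94.

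Genes whose profile over the 6 libraries was most like that of Chchd10 were found as the smallest root mean square difference of log2(value + 1), each gene centred on its own mean, among the other 14435 genes with a mean of at least 50. This measure is largely set by the difference between groups for which Chchd10 was chosen, and it is given as a description. The 5 nearest genes were Hapln2 (0.248), Rarres1 (0.407), Bckdhb (0.480), Tpst1 (0.556) and Hes5 (0.563). Hapln2, which encodes a matrix link protein of nodes of Ranvier, was at 601, 1526 and 743 in sham and at 154, 91.2 and 78.9 in ON-CR. It ordered all 6 libraries as Chchd10 did, from sham 2 down to ON-CR 6, and so did Rarres1 and Hes5, a Notch target. Rarres1 averaged 223 ± 23.7 in sham and 50.3 ± 25.4 in ON-CR, and Hes5 148 ± 94.6 and 26.0 ± 5.48 (SD, n = 3 each). Bckdhb, the only one of the 5 known as a mitochondrial gene (a subunit of branched-chain ketoacid dehydrogenase), averaged 531 ± 101 and 126 ± 72.9, and Tpst1, a Golgi tyrosylprotein sulfotransferase, 700 ± 20.1 and 162 ± 31.1. No partner was near the top of this ranking, where the closest was Chchd2 at position 2787 (1.44) and the farthest Chchd6 at position 10804 (1.69).

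**Figure D4:**
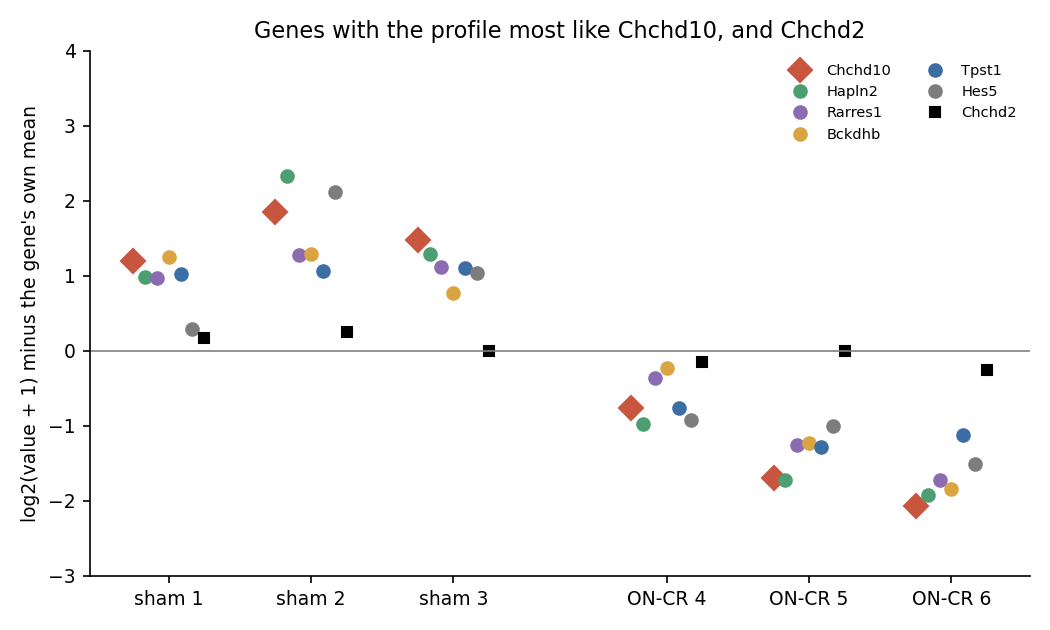
log2(value + 1) minus the gene's own mean over the 6 libraries (y axis) for Chchd10 (red diamonds), the 5 genes with the most similar profile (circles) and Chchd2 (black squares) in each library. Chchd10 and the 5 genes are above 0 in all 3 sham libraries and below 0 in all 3 ON-CR libraries, while Chchd2 stays between -0.25 and 0.24.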

How the data were processed

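RNA-seq of optic nerves from 3 sham and 3 ON-CR mice was analysed, grouped by the sample labels. The authors aligned reads with DRAGEN, assigned them to mm10 gene models in Partek Flow 10.0 and deposited, for every gene, a signal made of estimated counts that had been median-normalized. These are not whole counts, so limma 3.58.1 (R 4.3.3; mean-variance trend) on log2(value + 1) took the place of the count model used in the study, with Benjamini-Hochberg adjustment over 25755 genes and a threshold of 0.05. It was tested on simulated data. Each library was divided by its most frequent low value to estimate reads, and 67.8% to 70.0% of values under 1000 reads were then whole within 0.01. Each library was counted as 1 sample. The labels name 1 mouse for each, whereas the study pooled a pair of mice per sample for qPCR, so a library may hold more than 1 mouse, and p-values measure the spread between libraries.

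The 8 genes, the gene lists and the alternatives were chosen with earlier results of these data known. Named were the 8 genes, the neighbours of Chchd10, the called genes of each of the 8 mitochondrial lists (or the 2 with the largest difference and a mean of at least 50) and the 5 genes most like Chchd10. This rule was not applied to the lists of cell type markers. Dele1, Eif2ak1, Chchd4, Gdf15, Atf4, Psat1, Ddit4, Gfap, Aldoc, Mfn1, Mfn2, Myh4, Mylpf, Acta1, Tnnc2, Tnni2 and the MICOS subunits were named after their values were seen. So were Mbp, P2ry12, Tmem119, Chac1, Ddit3, Mthfd2 and Trib3. Gene positions and lengths are from GENCODE M21 (GRCm38), and copies were searched with blastn 2.17.0. The alternatives were pseudocounts of 2 and 0.1, a value of at least 10 in every library, TMM and upper-quartile scaling, a robust fit, array quality weights, other reference genes and leaving out each library. The reference of oligodendrocyte markers and the joint removal of 3 libraries were added after the data were seen. No 2 libraries were identical, differing in at least 99.1% of genes.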

Additional observations from a re-analysis of the deposited data

How the results depend on the processing

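The log2 difference of Chchd10 kept its direction in all 13 alternatives fixed for it, from -3.39 to -2.74, and was -2.30 with sham 3, ON-CR 5 and ON-CR 6 all left out, which leaves 1 ON-CR library and a value with no test. Relative to the mitochondrial content list it lay between -3.36 and -2.67 in 9 alternatives, and with mature oligodendrocyte markers as the reference it was -2.215. The joint removal also moved Chchd6 from 0.10 to -0.38, Opa1 from 0.05 to -0.11 and Chchd3 from -0.12 to -0.24. The oligodendrocyte reference turned the relative difference of Chchd2 from -0.22 to 0.54. The count of called genes among the 122 list genes was 3, and it was 1 with a pseudocount of 0.1, 5 with a value of at least 10 in every library, 5 with the robust fit and 6 with array quality weights. Leaving out each library gave 0 to 8 list genes and 67 to 854 of all genes, beside 540 with all libraries and 484 to 791 under the other alternatives. The cause was not tested. No paired analysis was possible because the libraries carry different numbers in the sham and ON-CR groups. Groups of 3 libraries, of differing sex, and the shallower ON-CR libraries limit what these values can show.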
